A study of Mus musculus with 14 samples.

Results

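Expression of 10 genes of the cadherin superfamily was examined in irradiated and control mouse hearts, with Fat1 as the gene against which the others were read. The genes were Fat1, Fat3, Fat4, Dchs1, Cdh2, Cdh11, Cdh13, Pcdh1, Pcdh7 and Pcdh17, taken by their symbols from a table of 54532 genes, in which each of the 10 symbols was found once. They were selected on their levels in irradiated against control hearts, that is, with their response to irradiation in these libraries already known, so every irradiated against control value of the 10 genes is a description. Calls of these genes in that comparison are given as counts beside those of all genes, and support nothing. The same holds for the change of the irradiation difference from 1 day to 6 weeks, which is made from the same values. Tests are given for the differences between times within control and within irradiated hearts and for the way the genes vary with Fat1 among hearts of 1 group, all in the libraries in which the genes were chosen.

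Bulk RNA was sequenced from 14 hearts, with 1 library per mouse. All mice were wild type C57BL/6J males, 8 weeks old when assigned to the groups. The mice of the 6 week groups were thus older at collection than those of the 1 day groups. The IRR_1d (n = 3) and IRR_6w (n = 4) mice received 30 Gy of 60Co γ-rays on the front of the chest under pentobarbital, with the rest of the body behind lead, and the hearts were collected 1 day or 6 weeks later. The Control_1d (n = 3) and Control_6w (n = 4) mice were labelled as controls of the same times, and whether they were also anaesthetised is not given in the sources used here.

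In the mm10 coordinates of the count table, Fat1 (ENSMUSG00000070047) lies on the plus strand at chr8:44935447-45052257. Cdh11 (ENSMUSG00000031673, minus strand, chr8:102632095-102785642) and Cdh13 (ENSMUSG00000031841, plus strand, chr8:118283733-119324921) are on the same chromosome. Fat3 (ENSMUSG00000074505) is at chr9:15910189-16501285 on the minus strand, Fat4 (ENSMUSG00000046743) at chr3:38886940-39011985 on the plus strand and Dchs1 (ENSMUSG00000036862) at chr7:105752990-105787654 on the minus strand. Pcdh7 (ENSMUSG00000029108, chr5:57717967-58133230) and Pcdh17 (ENSMUSG00000035566, chr14:84443563-84539002) are on plus strands, and Cdh2 (ENSMUSG00000024304, chr18:16588877-16809246) and Pcdh1 (ENSMUSG00000051375, chr18:38185914-38212053) are on minus strands. Counts cover exons. In the GENCODE annotation, genes on the other strand overlap 3.11% of the exonic bases of Fat1, 8.68% of Fat4, 5.86% of Dchs1 and 21.1% of Pcdh7. The strandedness of the counting is not given in the sources used here, so reads of those stretches cannot be told apart.

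Cadherins are membrane proteins whose extracellular repeats bind calcium and join neighbouring cells. Classical cadherins such as Cdh2 hold cells together at adherens junctions through catenins, and Cdh2 is the cadherin of the intercalated discs between cardiomyocytes. The Fat and Dachsous genes encode giant atypical cadherins. In flies Fat and Dachsous bind each other across cell borders, set planar cell polarity and act upstream of the Hippo growth pathway, and Fat4 with Dchs1 is the best described mammalian pair. Fat1 is known for actin dynamics and cell migration, and Fat3 mainly for neurons. Cdh11 is a cadherin of mesenchymal cells and fibroblasts, and Cdh13, or T-cadherin, is held in the membrane by a lipid anchor and binds adiponectin. Pcdh1, Pcdh7 and Pcdh17 are non-clustered protocadherins, which adhere weakly and act mostly in cell recognition.

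RefSeq promoter windows of 300 bases (GRCm38.p6, 250 bases before the start and 50 after) were found for 5 of the 10 genes, Fat1, Fat3, Fat4, Pcdh7 and Pcdh17. The window of Fat1 is shown because Fat1 had the largest irradiation difference, and that of Fat4 as another Fat gene with a small one. That of Pcdh17 is shown because its difference had opposite signs at the 2 times. The differences of Fat3, Fat4 and Pcdh7 also had opposite signs. Capitals mark matches on either strand of the motifs searched, and the sequences run 5′ to 3′.
Fat1, chr8:44949958-44950257, plus strand: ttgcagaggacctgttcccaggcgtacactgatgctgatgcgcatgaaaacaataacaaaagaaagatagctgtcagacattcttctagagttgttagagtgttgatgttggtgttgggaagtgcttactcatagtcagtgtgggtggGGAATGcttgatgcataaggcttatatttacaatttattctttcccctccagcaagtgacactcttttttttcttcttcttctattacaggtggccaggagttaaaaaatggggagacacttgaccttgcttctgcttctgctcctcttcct
Fat4, chr3:38886690-38886989, plus strand: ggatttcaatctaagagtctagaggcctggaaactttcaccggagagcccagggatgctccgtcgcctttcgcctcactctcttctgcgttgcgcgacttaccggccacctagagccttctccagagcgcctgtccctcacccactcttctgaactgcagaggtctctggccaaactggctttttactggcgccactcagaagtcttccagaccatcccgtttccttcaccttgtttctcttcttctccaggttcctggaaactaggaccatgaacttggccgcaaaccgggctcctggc
Pcdh17, chr14:84443313-84443612, plus strand: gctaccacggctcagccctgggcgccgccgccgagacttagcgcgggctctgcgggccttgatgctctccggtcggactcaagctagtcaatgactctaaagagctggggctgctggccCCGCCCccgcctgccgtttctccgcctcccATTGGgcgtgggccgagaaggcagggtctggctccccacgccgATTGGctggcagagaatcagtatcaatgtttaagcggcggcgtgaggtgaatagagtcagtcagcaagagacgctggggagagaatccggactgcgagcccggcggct
The RefSeq start of Fat1 lies 14761 bases inside the gene, and 3 of its 6 GENCODE transcripts start within the window. The Fat1 window had a GC content of 42.7%, that of Fat4 55.7% and that of Pcdh17 65.0%, beside a median of 52.7% over all 32851 promoter windows. The motifs searched on both strands were TATAAA (the core promoter box), CCAAT (the site of NF-Y), GGGCGG (GC box), CACGTG (E-box), TGANTCA (AP-1 site), CATTCC (TEAD site) and the p53 half-site. The Fat1 window held 1 match, CATTCC read on the minus strand, the core of the site of the TEAD factors of the Hippo pathway, and 14.7% of all windows hold this motif. The Pcdh17 window held CCAAT 2 times and GGGCGG 1 time, all on the minus strand, found in 37.4% and 35.7% of all windows. The Fat4 window held none of the 7 motifs. Of the windows not shown, that of Pcdh7 held 1 match, a p53 half-site, found in 8.36% of all windows, and that of Fat3 held none. No 2 of the marked matches overlap.

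Library totals ran from 13336746 to 16837265 counts. By the marker sums, 3 libraries stood apart. Control_6w replicate 3 held thymus genes (2759 CPM, against 72.7 or less in the others). IRR_6w replicate 1 held lung, brown fat, atrial and mesothelial genes. Control_6w replicate 3 was second to it for lung genes (33.0 CPM, against 3.57 or less in the rest). The same library was second for brown fat genes (814 CPM, against 445.7 or less in the rest). IRR_1d replicate 3 stood apart by atrial and mesothelial genes, which belong to the heart itself, while lung genes summed to 0.343 CPM or less in IRR_1d. Testis germ cell genes summed to 63.6 to 72.8 CPM in Control_6w replicates 1 to 3 and to 0.361 or less in the others, so that Control_6w replicates 1 and 2 also carried transcripts of another tissue. CPM here is the count scaled by the library total and its TMM factor. In Control_1d replicate 1, IRR_6w replicate 3, IRR_6w replicate 4 and Control_6w replicate 1, 39.7%, 30.2%, 14.8% and 8.15% of the genes with a mean of 2 to 5 CPM had no count, against at most 4.45% in the others. Cardiomyocyte markers were abundant in all 14 libraries, with sums of 4784 to 40710 CPM. Irradiation differences are also given without the first 3 of these, which leaves Control_6w replicates 1 and 2 in. Those first 3 are called the 3 libraries with other tissues, a name that also covers the atrial and mesothelial genes of IRR_1d replicate 3. For Fat1 and Cdh11 the differences are also given without all 5.

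Levels of the genes can be compared only per length, which FPKM does. By the mean FPKM of the 14 libraries, Cdh2 was highest at 21.9 ± 7.96 (SD), followed by Cdh13 at 12.5 ± 3.51 and Pcdh7 at 10.4 ± 3.46. Pcdh1 (5.08 ± 2.55), Fat1 (4.49 ± 2.93) and Dchs1 (3.90 ± 2.54) formed a middle group. Cdh11 (2.65 ± 2.33), Fat4 (1.74 ± 0.412) and Pcdh17 (1.25 ± 0.579) were lower, and Fat3 was near 0 at 0.0384 ± 0.0255. The middle order was not firm and differed by group. In the controls Fat1 was below Pcdh1 and Dchs1 (2.21 against 4.11 and 3.01 at 1 day, 1.97 against 4.22 and 2.57 at 6 weeks), in IRR_1d above both (6.29 against 3.58 and 2.54), and in IRR_6w between them (7.39 against 7.81 and 6.91). Over the libraries Pcdh1 was above Fat1 in 9 of 14 libraries, Fat1 above Dchs1 in 6 and Cdh11 above Fat4 in 8. Cdh2 was above Cdh13 in 12, Cdh13 above Pcdh7 in 11, Pcdh7 above Pcdh1 in 13 and Pcdh17 above Fat3 in 14. Of the summed FPKM of the 10 genes, Fat1 held 3.53% in Control_1d and 8.78% in IRR_1d, and 4.18% in Control_6w and 9.68% in IRR_6w.

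Fat1 was higher in every irradiated heart than in every control heart of its time. At 1 day its CPM was 37.1, 35.1 and 42.6 in Control_1d and 86.5, 75.4 and 145.5 in IRR_1d. At 6 weeks it was 16.9, 31.8, 30.0 and 46.6 in Control_6w and 108.7, 78.4, 117.1 and 90.9 in IRR_6w. All 7 irradiated values lay above all 7 control values. The fitted log2 fold change was 1.42 (SE 0.347), a fold of 2.68, at 1 day and 1.66 (SE 0.303), a fold of 3.15, at 6 weeks. Without the 3 libraries with other tissues it was 1.08 at 1 day and 1.58 at 6 weeks. Without all 5, which leaves 1 library in Control_6w that is assumed to vary like the other groups, it was 1.10 at 1 day and 0.98 at 6 weeks, and Fat1 was not called. IRR_1d replicate 3, with the highest Fat1 of all libraries, also had the highest fibroblast marker sum of all libraries, 4664 CPM against 2838 or less.

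**Figure D1:**
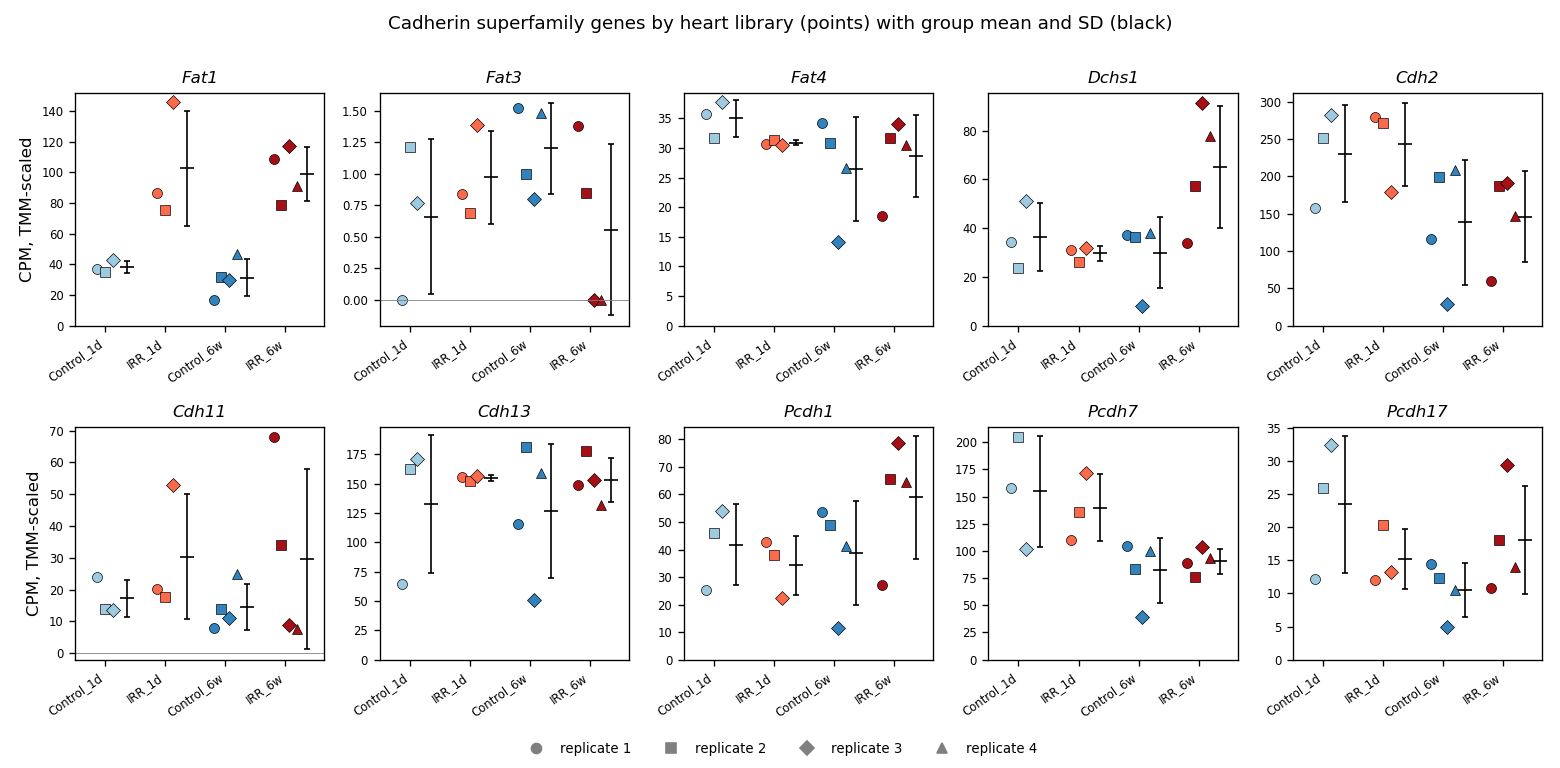
CPM scaled by TMM (y axis, from 0) of each of the 10 genes in the 14 heart libraries, by group on the x axis, with 1 point per library, its shape giving the replicate number, and black bars for the group mean and SD. Fat1 is the gene whose irradiated points (75.4 to 145.5) all lie above its control points (16.9 to 46.6), and Control_6w replicate 3 is the lowest of the 14 points for 7 of the genes.

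A gene was called where the edgeR adjusted p was under 0.05 and the fold above 2 or below 0.5. At 1 day none of the 10 genes was called, beside 0.0249% of the 16034 genes tested. There were 0 calls by DESeq2 (0.197% of all genes), and 1 gene, Fat1, had an unadjusted p under 0.05 (2.9% of all genes). At 6 weeks 1 gene was called, Fat1, beside 0.256% of all genes, with 1 call by DESeq2 (2.04%) and 2 genes at an unadjusted p under 0.05 (8.81%). For the mean of both irradiation differences, where Fat1 was at 1.54 (SE 0.231), Fat1 was again the 1 call, beside 0.281% of all genes, with 1 call by DESeq2 (1.29%) and 1 gene at an unadjusted p under 0.05 (7.52%). Since the genes were chosen on this contrast, nothing is read from these counts. The 6 week call of Fat1 was kept in 4 of the 14 fits that each left out 1 library, namely those without Control_1d replicate 1, IRR_1d replicate 3, Control_6w replicate 4 and IRR_6w replicate 1. It was lost in the 10 others, where the log2 fold change was 1.43 to 1.75. With the replicate number as a block it was also lost. The call for the mean of both differences was kept in 12 of 14 and lost without Control_1d replicate 1 and without Control_1d replicate 2. Over all genes the 6 week calls also rested on single libraries, with 0 to 98 called in place of 41. There were 0 without Control_6w replicate 1, Control_6w replicate 2, IRR_6w replicate 3 or IRR_6w replicate 4. Without the 4 libraries with many genes at 0, Fat1 was at 1.38 at 6 weeks and was not called, and neither was any other gene. Without the 3 libraries with other tissues Fat1 was called at 6 weeks and for the mean of both differences. At 6 weeks that fit called 180 genes in all.

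Fat4 showed no difference of the size of that of Fat1, and Fat3 was too low to compare. Fat4 was lower in each IRR_1d heart (30.7, 31.4 and 30.5 CPM) than in each Control_1d heart (35.7, 31.6 and 37.8), but by little, with a log2 fold change of -0.18 (SE 0.314). At 6 weeks Fat4 ran from 14.2 to 34.2 CPM in Control_6w and from 18.5 to 34.0 in IRR_6w, and the groups overlapped almost fully (0.12, SE 0.272). Fat3 was hardly detected, with 0 to 24 counts per library. Its 3 libraries with no count (Control_1d replicate 1 and IRR_6w replicates 3 and 4) are those in which the most genes of low level had no count, and 0 counts there allow up to 0.188, 0.191 and 0.143 CPM by counting error alone. The log2 fold changes of Fat3, 0.57 (SE 1.59) at 1 day and -1.10 (SE 1.38) at 6 weeks, were smaller than their errors. At 6 weeks that of Fat3 was -2.22 without the 3 libraries with other tissues and -1.61 with the replicate number as a block. Without the 4 libraries with many genes at 0 it was 0.03 at 6 weeks and -0.04 at 1 day.

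Dchs1, the partner of Fat4, was slightly lower on average in irradiated hearts at 1 day and higher at 6 weeks. At 1 day it was 34.5, 23.7 and 51.2 CPM in Control_1d and 31.1, 26.3 and 31.8 in IRR_1d (log2 fold change -0.29, SE 0.491). At 6 weeks it was 37.2, 36.5, 8.09 and 37.9 in Control_6w and 33.8, 57.3, 91.4 and 77.8 in IRR_6w. The irradiated hearts were mostly higher, but IRR_6w replicate 1 lay below 3 of the 4 controls, and Control_6w replicate 3 lay far under the others. The 6 week log2 fold change was 1.12 (SE 0.429), a fold of 2.18, and 1.02 without the 3 libraries with other tissues. It was 0.75 without the 4 libraries with many genes at 0, which include IRR_6w replicates 3 and 4. Without all 5 libraries it was 0.94. Over the 14 libraries Dchs1 followed the summed macrophage markers with r = 0.875 and, after removal of group means, r = 0.828. Within groups it followed the endothelial sum with r = 0.919, and the macrophage r was also high for Fat4 (0.823), Cdh2 (0.773) and Pcdh1 (0.706). Control_6w replicate 3 had the highest thymus sum, 2759 CPM, and was the lowest of the 14 libraries for each of these genes. With the thymus sum the within-group r was -0.801 for Dchs1, -0.904 for Fat4, -0.877 for Cdh2 and -0.892 for Pcdh1. All these marker r are given only with that library included. The macrophage markers summed to 277 to 710 CPM in Control_6w and 1151 to 1489 in IRR_6w, and their part in the difference of Dchs1 was not tested.

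Cdh11 was above all 7 control libraries in 3 of the 7 irradiated libraries. Its CPM was 24.0, 13.99 and 13.7 in Control_1d and 20.3, 17.6 and 52.99 in IRR_1d, and 7.92, 14, 11.2 and 24.9 in Control_6w and 68.0, 34.0, 8.84 and 7.60 in IRR_6w. The highest values were those of IRR_6w replicate 1 and IRR_1d replicate 3, followed by IRR_6w replicate 2, while IRR_6w replicates 3 and 4 were among the lowest libraries. The log2 fold change was 0.81 (SE 0.722) at 1 day and 1.03 (SE 0.628) at 6 weeks, and 0.14 and 0.11 without the 3 libraries with other tissues. Without all 5 it turned lower, to -0.58 at 6 weeks and -0.21 for the mean of both times. The 4 libraries with many genes at 0 include IRR_6w replicates 3 and 4. Without those 4 the log2 fold change was 1.11 at 1 day and 1.61 at 6 weeks. Mesothelial markers summed to 531 and 266 CPM in IRR_6w replicate 1 and IRR_1d replicate 3 and to 200.2 or less in the others, atrial markers to 3435 and 2439 CPM against 661 or less, and Cdh11 followed the mesothelial sum within groups with r = 0.855.

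The other classical and lipid-anchored cadherins differed little between irradiated and control hearts. Cdh2 ran from 157.3 to 282.3 CPM in Control_1d and from 179.3 to 279.5 in IRR_1d, and from 29.7 to 208.4 in Control_6w and from 60.5 to 190.6 in IRR_6w. Its log2 fold change was 0.08 at both times (SE 0.563 and 0.488). Within groups it followed the summed cardiomyocyte markers with r = 0.950, and its lowest library, Control_6w replicate 3, also had the lowest sum of these markers, 4784 CPM. Cdh13 ran from 64.9 to 170.9 CPM in Control_1d and from 152.3 to 156.2 in IRR_1d, and from 50.6 to 181.3 in Control_6w and from 132.2 to 177.7 in IRR_6w. Its log2 fold change was 0.22 (SE 0.414) at 1 day and 0.27 (SE 0.359) at 6 weeks, and 0.02 at 6 weeks without the 3 libraries.

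The protocadherins also overlapped between irradiated and control hearts. Pcdh1 was 25.3 to 53.9 CPM in Control_1d and 22.3 to 42.6 in IRR_1d (log2 fold change -0.29, SE 0.505), and 11.6 to 53.6 in Control_6w and 27.1 to 78.8 in IRR_6w (0.60, SE 0.438). Pcdh7 differed least of the 3, by -0.15 (SE 0.350) at 1 day and 0.14 (SE 0.304) at 6 weeks. Pcdh17 was 12.2, 25.9 and 32.4 CPM in Control_1d and 11.99, 20.3 and 13.3 in IRR_1d, a log2 fold change of -0.63 (SE 0.478). At 6 weeks it was 14.4, 12.3, 4.90 and 10.6 in Control_6w and 10.8, 18.1, 29.5 and 14.1 in IRR_6w, a log2 fold change of 0.78 (SE 0.415). Pcdh17 was thus lower on average in irradiated hearts at 1 day and higher at 6 weeks, with overlapping groups at both. Leaving out 1 library at a time, its log2 fold change ran from -0.94 to -0.30 at 1 day and from 0.44 to 0.96 at 6 weeks. That of Pcdh1 ran from 0.30 to 0.84 at 6 weeks.

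**Figure D2:**
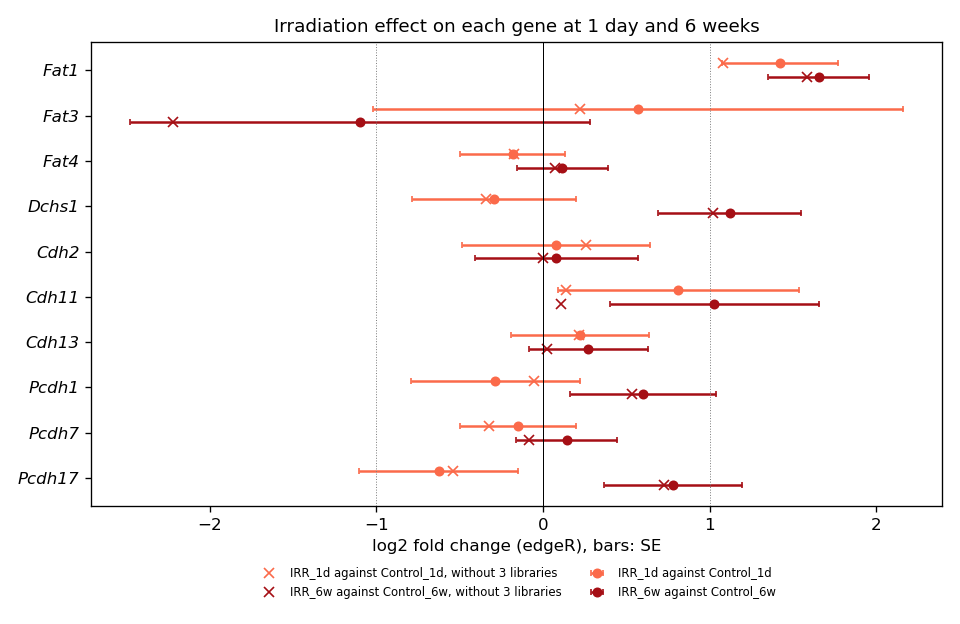
Log2 fold change of irradiated against control hearts (x axis) for each of the 10 genes (y axis) at 1 day (orange) and 6 weeks (dark red). Points have SE bars from edgeR, and dotted lines mark the fold limits. Crosses give the same value without the 3 libraries that stood apart by transcripts of other tissues or of atrium and mesothelium. Fat1 lies beyond the upper limit with and without those libraries (1.42 and 1.08 at 1 day, 1.66 and 1.58 at 6 weeks), whereas Cdh11 moves from 1.03 to 0.11 at 6 weeks.

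Of the 10 genes, 5 were higher in irradiated hearts at 1 day and 9 at 6 weeks by the sign of the log2 fold change, where 55.1% and 43.8% of all genes tested were higher, and 7 for the mean of both times (48% of all genes). These signs rested on single libraries for the genes with small differences. Without Control_1d replicate 1 Fat3 (-0.02), Cdh2 (-0.13) and Cdh13 (-0.10) turned lower at 1 day, which left 2 of the 10 higher, and 2 were also left without the 4 libraries with many genes at 0. Without Control_6w replicate 3 Fat4 (-0.09), Cdh2 (-0.25) and Pcdh7 (-0.09) turned lower at 6 weeks, which left 6. At 6 weeks 8 were higher without the 3 libraries with other tissues and 5 without all 5. For the mean of both times the 7 became 9 by library totals in place of TMM, 5 without Control_6w replicate 3 or without the 4 libraries with many genes at 0, and 6 without all 5. At an unadjusted p with the fold limits, 1 gene was past them at 1 day in edgeR and in DESeq2 (2.23% and 3.1% of all genes), 2 at 6 weeks (5.43% and 4.21%; Fat1 and Dchs1) and 1 for the mean of both times (3.58% and 2.86%). Their median log2 fold change was -0.04 at 1 day, beside 0.06 for all genes, and 0.44 at 6 weeks, beside -0.09. Groups that did not overlap were found for 1 gene at 1 day in the higher direction (Fat1; 6.52% of all genes), 1 in the lower (Fat4; 4.14%) and 1 at 6 weeks in the higher (Fat1; 4.08%). In bulk RNA, more cells of a type and more RNA per cell cannot be told apart. Beside the difference of Fat1, fibroblast markers summed to 896 to 2103 CPM in Control_6w and 2170 to 2838 in IRR_6w, with 7 of 8 markers higher, and to 1989 to 2684 in Control_1d and 2280 to 4664 in IRR_1d, with 8 of 8 higher. Fat1 followed the fibroblast sum with r = 0.639 over the 14 libraries and r = 0.251 after removal of group means. The macrophage sum, given above with Dchs1, also did not overlap at 6 weeks, and its r with Fat1 was 0.565 over the 14 libraries and -0.106 within groups. Within groups the sums of largest r with Fat1 were those of testis germ cells (-0.573, and -0.698 over the 14) and atrium (0.447). The part of any of these in the difference of Fat1 was not tested.

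The levels of the 2 times, whose mice also differed in age at collection, were compared next, first in control hearts. In Control_6w against Control_1d none of the 10 genes was called by edgeR (2 at an unadjusted p under 0.05, and 0 by DESeq2), and no gene of the table was (0% called, 5.28% at an unadjusted p under 0.05 and 0.143% by DESeq2). By the values given above, Pcdh17 at 6 weeks was at -1.15 on the log2 scale (SE 0.443, edgeR adjusted p = 0.902). Pcdh7 was 158.0, 204.5 and 101.9 CPM in Control_1d and 104.7, 83.7, 39.5 and 100.3 in Control_6w. The 2 groups of Pcdh7 overlapped only by Control_1d replicate 3 and Control_6w replicate 1, and the log2 fold change was -0.92 (SE 0.326, edgeR adjusted p = 0.902). Fat1 was at -0.29 (SE 0.318, edgeR adjusted p = 0.933). By sign, 9 of the 10 genes were lower at 6 weeks, while 59.1% of all genes were higher, and 6 were lower without Control_1d replicate 3 or without Control_6w replicate 3. By library totals 7 were lower, and without all 5 libraries 5 were lower and 5 higher. No member had groups without overlap (3.39% of all genes higher and 2.53% lower), and 1, Pcdh17, was past the fold limits at an unadjusted p in edgeR and in DESeq2 (3.75% and 2.86% of all genes).

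In IRR_6w against IRR_1d again none of the 10 was called by edgeR (1 at an unadjusted p under 0.05, and 0 by DESeq2), beside 0.0374% of all genes called, 5.79% at an unadjusted p under 0.05 and 0.969% by DESeq2. Dchs1 was higher in every IRR_6w heart (33.8 to 91.4 CPM) than in every IRR_1d heart (26.3 to 31.8), by 1.13 on the log2 scale (SE 0.472, edgeR adjusted p = 0.820). This was the 1 gene of the 10 without overlap in the higher direction, where 5.47% of all genes had none. Without the 4 libraries with many genes at 0 the log2 fold change of Dchs1 was 0.62. Pcdh7 was the 1 without overlap in the lower direction (3.84% of all genes), at 110.5, 136.2 and 171.9 CPM in IRR_1d and 89.3, 76.2, 103.7 and 93.2 in IRR_6w. Its log2 fold change was -0.62 (SE 0.326, edgeR adjusted p = 0.925). By sign 3 of the 10 were higher at 6 weeks, beside 48.5% of all genes, and 7 were by library totals in place of TMM. Of the 10, 1 gene, Dchs1, was past the fold limits at an unadjusted p in edgeR and in DESeq2 (3.85% and 4.08% of all genes). For Fat1 the time difference in irradiated hearts was small, with a log2 fold change of -0.05, a 95% interval of -0.73 to 0.63 and an edgeR adjusted p of 0.999.

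The change of the irradiation difference from 1 day to 6 weeks was taken as an interaction. Since it is the difference of the values on which the genes were chosen, it is a description. None of the 10 genes was called by edgeR (2 at an unadjusted p under 0.05, and 0 by DESeq2), and no gene of the table was (0% called, 3.14% at an unadjusted p under 0.05 and 0.285% by DESeq2). For Fat1 the change was 0.23 (SE 0.451) on the log2 scale, with a 95% interval of -0.73 to 1.20. The largest changes were those of Dchs1 at 1.42 (SE 0.652, 95% interval 0.02 to 2.81) and Pcdh17 at 1.41 (SE 0.633, 95% interval 0.05 to 2.76), leaving aside Fat3 with its low counts. Pcdh1 followed at 0.89 (SE 0.669). The other changes, again without Fat3, lay between 0.0024 and 0.30. By sign 9 of the 10 changes were positive, beside 41.4% of all genes, with 6 without Control_6w replicate 1 or without the 3 libraries with other tissues, and 5 without all 5. Both edgeR and DESeq2 put 2 of the 10, Dchs1 and Pcdh17, past the fold limits at an unadjusted p (2.86% and 2.5% of all genes).

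Whether another gene followed Fat1 was then read over the libraries. Over all 14, which includes the irradiation difference and is a description, Pearson's r with Fat1 of log2(CPM + 1) was 0.488 for Cdh11, 0.401 for Dchs1, 0.394 for Cdh13 and between -0.23 and 0.18 for the other 6. Without the 2 libraries farthest from the median of Fat1, IRR_1d replicate 3 and Control_6w replicate 1, r was 0.205 for Cdh11 and 0.588 for Dchs1. Among 11058 genes with a mean of at least 5 CPM, ranked by r with Fat1, Cdh11 stood at rank 1008, Dchs1 at 1498, Cdh13 at 1536 and Fat4 at 5108.

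After removal of group means none of the 9 genes was correlated with Fat1 beyond an exact permutation test over the 20736 arrangements of libraries within groups (two-sided, adjusted over 9). The highest was Cdh11 with r = 0.432 (exact permutation p = 0.113, adjusted p = 0.958) and rho = 0.437 (exact permutation p = 0.168, adjusted p = 0.911). For Cdh13 r was 0.148, for Dchs1 0.08 and for Fat4 -0.218, and Pcdh1 was lowest at -0.259. Without IRR_1d replicate 3 and Control_6w replicate 1 the r of Cdh11 was 0.126 and that of Dchs1 0.457. The order of the genes was not kept without the 3 libraries with other tissues, where Cdh2 was highest at 0.672 (exact permutation adjusted p = 0.531), Cdh11 was at 0.267 and Fat4 was lowest at -0.496. The smallest exact permutation adjusted p of the 9 there was that of Dchs1, 0.125 with r = 0.363.

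**Figure D3:**
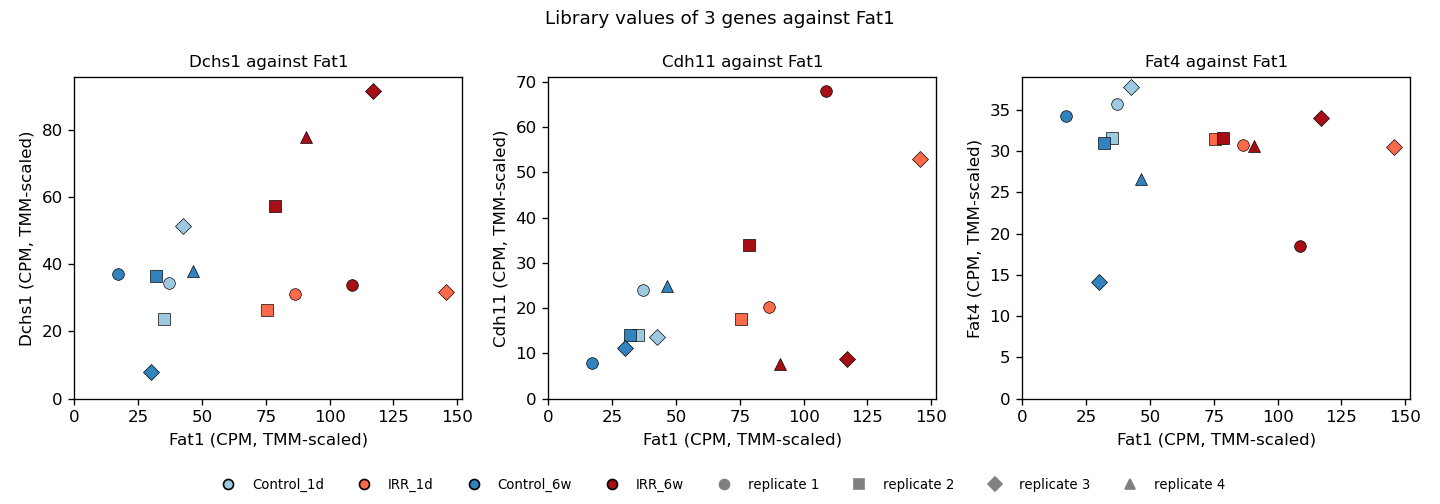
CPM scaled by TMM of Dchs1, Cdh11 and Fat4 (y axes, from 0) against that of Fat1 (x axis, from 0) in the 14 libraries, with colours for the groups and shapes for the replicates. Irradiated libraries lie to the right for Fat1, Fat4 keeps to 14.2 to 37.8 CPM along the axis, and the 2 highest Cdh11 points are IRR_6w replicate 1 and IRR_1d replicate 3.

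The other 9 genes were also read against each other. Of their 36 pairs, 18 had an r above 0.5 over the 14 libraries after removal of group means. None of the 9 pairs with Fat1 did, which lay between -0.259 and 0.432. The 18 hold Fat3 with Cdh11 (0.610) and with Cdh13 (0.506), although Fat3 was too low to compare. Both also stayed above 0.5 without Control_6w replicate 3 (0.607 and 0.526). Cdh2 with Pcdh1 (r = 0.924) and Fat4 with Dchs1 (r = 0.922) were the closest. Within groups these 4 genes followed the endothelial marker sum about as closely over the 14 libraries. The r was 0.918 for Cdh2, 0.913 for Pcdh1, 0.948 for Fat4 and 0.919 for Dchs1. With the thymus sum it was -0.877, -0.892, -0.904 and -0.801, in the same order. These marker r are given only with Control_6w replicate 3 included, and the part of cell make-up in these pairs was not tested. Control_6w replicate 3, the library with thymus genes, was the lowest of all 14 for 7 of the 10 genes. Without it 13 of the 18 pairs stayed above 0.5 and 5 did not, and no other pair rose above it. The median r of the 36 pairs fell from 0.502 to -0.003, and that of the 18 pairs that had been at or below 0.5 from 0.02 to -0.29, while Cdh2 with Pcdh1 stood at 0.830 and Fat4 with Dchs1 at 0.796. The correlations are descriptions over 14 libraries that share scaling and tissue make-up, and the difference between the pairs was not tested.

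**Figure D4:**
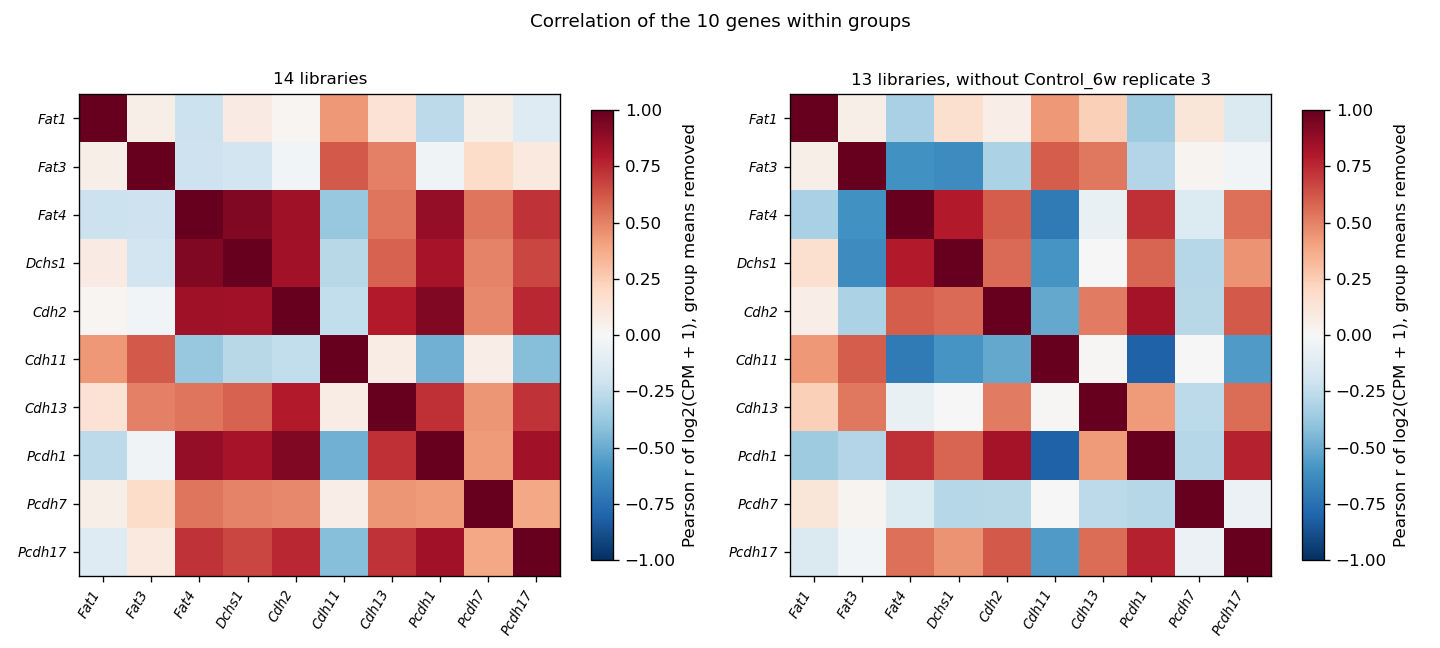
Pearson's r of log2(CPM + 1) for each pair of the 10 genes after removal of group means (colour scale from -1 to 1), over 14 libraries on the left and 13 on the right, without Control_6w replicate 3. The row of Fat1 stays pale on both sides, and of the 10 pairs among Fat4, Dchs1, Cdh2, Pcdh1 and Pcdh17, picked out after their values were seen, 10 are above 0.5 on the left (0.664 to 0.924) and 9 on the right (0.446 to 0.830 over the 10).

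The genes whose pattern over the 14 libraries was most like that of Fat1 were none of the 10. Siglec1, a sialic acid receptor of macrophages, was first with r = 0.928, followed by Col14a1, a collagen of fibrils, with 0.915, Oasl2, an interferon-stimulated gene, with 0.912, Igsf9b, an adhesion protein of the immunoglobulin family, with 0.907, and Scn3b, a sodium channel subunit, with 0.892. Mean CPM of Siglec1 was 9.67 without and 45.6 with irradiation at 1 day and 4.68 without and 56.3 with it at 6 weeks, and that of Col14a1 33.3 and 89.8 at 1 day and 22.3 and 77.8 at 6 weeks. Within groups these 5 genes kept an r of 0.551 to 0.674 with Fat1. They were chosen for this likeness, and no test was made of it.

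Other genes of the superfamily and of the pathways that Fat and cadherin proteins act through were read in lists. The lists were also chosen with earlier results of these libraries known, and their adjusted p are over all genes tested. Of 44 other cadherin superfamily genes, 29 had enough counts for the test, and none was called by edgeR at 1 day (0 at an unadjusted p under 0.05, and 0 by DESeq2) or at 6 weeks (1 at an unadjusted p under 0.05, and 1 by DESeq2, both Cdh23; 8.81% of all genes at an unadjusted p under 0.05, and 2.04% by DESeq2). Cdh23, a cadherin of hair cell tip links, had the smallest p at 6 weeks, with 7.75 to 20.2 CPM in Control_6w and 2.66 to 7.71 in IRR_6w. Its groups did not overlap (1.64% of all genes in the lower direction), and its log2 fold change was -1.61 (SE 0.485, edgeR adjusted p = 0.228). Without the 3 libraries with other tissues it was -2.22 and called (edgeR adjusted p = 0.0402). That fit called 180 genes in all, where the fit of all 14 libraries called 41. Cdh24 came next at -3.83 (SE 2.01, edgeR adjusted p = 0.629), but both groups held libraries with no count and 1 control library reached 31.6 CPM. The median of the 29 genes was 0.11 at 1 day and 0.06 at 6 weeks, beside 0.06 and -0.09 for all genes.

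The catenins and plakophilins, which tie cadherins to the cytoskeleton, were also read. None of the 10 was called by edgeR at 1 day (0 at an unadjusted p under 0.05, and 0 by DESeq2) or at 6 weeks (1 at an unadjusted p under 0.05, and 0 by DESeq2, beside 8.81% and 2.04% of all genes), and their median log2 fold change was -0.11 at both times, beside 0.06 and -0.09 for all genes. Ctnnb1, or β-catenin, was at -0.05 at 6 weeks and Ctnna1, or α-catenin, also at -0.05. Pkp4, a plakophilin, had the smallest p, with 69.1 to 183.4 CPM in Control_6w and 61.1 to 102.7 in IRR_6w (log2 fold change -0.85, SE 0.297, edgeR adjusted p = 0.361). Without the 3 libraries with other tissues it was at -1.22 and called (edgeR adjusted p = 0.0247). That fit called 180 genes in all, where the fit of all 14 libraries called 41. Ctnna3, the α-catenin of cardiomyocytes, was second at -0.21 (SE 0.443, edgeR adjusted p = 0.924).

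Of 14 partners of Fat and Dchs proteins in planar polarity and actin assembly, none was called by edgeR at 1 day (1 at an unadjusted p under 0.05, Homer3, beside 2.9% of all genes, and 0 by DESeq2) or at 6 weeks (1 at an unadjusted p under 0.05, and 1 by DESeq2, both Prickle1, beside 8.81% and 2.04% of all genes). Prickle1, a planar polarity protein of the cytoplasm, ran from 20.1 to 35.9 CPM in Control_6w and from 7.51 to 15.7 in IRR_6w. Its groups did not overlap (1.64% of all genes in the lower direction), and its log2 fold change was -1.15 (SE 0.283, edgeR adjusted p = 0.118), with -0.15 (SE 0.323) at 1 day. Homer3, a scaffold protein of synapses named here after its values were seen, was at 1.64 at 1 day (SE 0.491, edgeR adjusted p = 1) and 0.78 at 6 weeks (SE 0.416, edgeR adjusted p = 0.632). For the mean of both times it was at 1.21 (edgeR adjusted p = 0.200) and was called by DESeq2 (1.22, adjusted p = 0.0108). Fzd3, a Frizzled receptor, was second by p at 6 weeks, at 0.94 (SE 0.449, edgeR adjusted p = 0.582).

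Of 22 Hippo pathway genes, none was called by edgeR at 1 day (0 at an unadjusted p under 0.05, and 0 by DESeq2) or at 6 weeks (2 at an unadjusted p under 0.05, and 1 by DESeq2, Ankrd1, beside 8.81% and 2.04% of all genes), and 16 were higher at 6 weeks by sign, beside 43.8% of all genes. Ankrd1, a cardiac stress gene and target of YAP, ran from 134.9 to 671.4 CPM in Control_6w and from 874.1 to 1597 in IRR_6w, which is 1.69 on the log2 scale (SE 0.463, edgeR adjusted p = 0.165). At 1 day it ran from 245.1 to 651.5 CPM in controls and from 328.1 to 690.3 in irradiated hearts, a log2 fold change of 0.18 (SE 0.521). Ajuba, a LIM protein that binds LATS kinases, was second by p, from 7.61 to 9.57 CPM in Control_6w and from 11.1 to 19.0 in IRR_6w (log2 fold change 0.94, SE 0.315, edgeR adjusted p = 0.323). The median of the 22 genes was 0.17 at 1 day and 0.26 at 6 weeks, beside 0.06 and -0.09 for all genes.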

How the data were processed

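The authors checked reads with FastQC (0.11.8), trimmed them with Trim Galore (0.6.1), aligned them to mm10 with STAR (2.5.0a) and counted them per gene with HTSeq, and the deposited table holds these counts, whole and not normalized, with gene lengths. Strandedness, counting mode and annotation release are not given in the sources used here. Of 54532 gene identifiers, 54409 were in GENCODE M21 (GRCm38), 98.3% at the same coordinates, including all 10 members.

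Counts of all libraries were fitted together in edgeR 4.0.16 (R 4.3.3) with filterByExpr (16034 genes kept, all 10 members among them), TMM scaling, 4 group means and the quasi-likelihood test, with Benjamini-Hochberg adjustment over all tested genes. SE is the log2 fold change over the root of F. CPM used TMM-scaled totals (factors 0.726 to 1.25) and FPKM the unscaled totals and deposited lengths. With library totals in place of TMM, the median of all genes moved up on the log2 scale by 0.08 (1 day), 0.23 (6 weeks), 0.15 (their mean), 0.16 (controls), 0.32 (irradiated groups) and 0.15 (interaction). DESeq2 1.42.0 was an alternative. Intervals and limits of 0 counts (3 counts) cover counting error only where they come from counts. Correlations used log2(CPM + 1) with exact permutation in Python 3.11.15. The scripts were tested on simulated data.

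The members and lists were chosen with earlier results of these data known. Genes outside the 10 were named as the 2 of smallest p at 6 weeks in each list, and the 5 of highest r with Fat1. Ctnnb1, Ctnna1 and Homer3 were added after their values were seen. No 2 libraries were copies of each other (at most 1.24% of counts identical). Each library is labelled as a separate mouse. The promoter sequences are from RefSeq.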

Additional observations from a re-analysis of the deposited data

Results flagged for a closer look

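In Control_6w, Dchs1 was 8.09 CPM in replicate 3 and between 36.5 and 37.9 CPM in the 3 other libraries. The gap of that library to the nearest of the others was 0.952 of the whole range of the group, above the limit of 0.829 for groups of 4. Of 20 combinations of a member and a group of 4 that were examined this was the 1 beyond the limit, and chance gives about 1 in 20. This library also had the highest thymus marker sum (2759 CPM) and the lowest cardiomyocyte marker sum (4784 CPM), and the part of these in its low Dchs1 was not tested.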

How the results depend on the processing

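The irradiation log2 fold change of Fat1 stayed positive under each alternative run, at 1.08 to 1.62 at 1 day and 0.98 to 1.91 at 6 weeks, with 0.98 without the 5 libraries with other tissues or testis. The number of members called varied. At unadjusted p, in edgeR and also in DESeq2 on the libraries of each contrast, it was 1 at 1 day, 2 at 6 weeks, 1 in each comparison of the times and 2 for the change of the irradiation difference. Without the 4 libraries with many genes at 0, and without the 5 libraries, alternatives chosen after seeing the data, it was 0 at 6 weeks and 0 for the mean of both times. Leaving out 1 library at a time gave 0 to 1 at 6 weeks and 0 to 1 for the mean. Over all genes the 6 week calls numbered 41, and 343 by DESeq2, 138 with no filter, 83 by library totals, 180 without the 3 libraries with other tissues, 0 without the 4 libraries, 0 without the 5, 0 to 98 leaving out 1 library at a time and 1133 with unadjusted p in DESeq2. At 1 day they numbered 4, and 33 by DESeq2, 8 with no filter, 2 by library totals and 778 with unadjusted p in DESeq2. Without the 4 libraries there were 0 at 1 day, and 0 to 11 leaving out 1 library at a time.

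Replicate numbers are shared between the groups, but same-numbered libraries deviated together with r of -0.261, 0.0908 and -0.137 at 1 day and of -0.405, 0.508, -0.151 and 0.0507 at 6 weeks, so the numbers were not taken to pair the mice. With the replicate number as a block the members called at 6 weeks numbered 0, Fat1 being at 1.71, and all genes called 15. The block turned the Cdh11 change of the irradiation difference to -0.0729.

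Log2 fold changes changed sign under some alternatives, and the cause was not tested. Most were small, but the Fat3 change of the irradiation difference was -1.67 and its difference between irradiated groups -0.80. Without the 4 libraries Fat3 went from -1.10 to 0.03 at 6 weeks and from 0.57 to -0.04 at 1 day. Without the 5 libraries Cdh11 at 6 weeks went from 1.03 to -0.58. Between the controls, Cdh13 was 0.10 and Pcdh1 0.0387 by library totals, Dchs1 0.0274, Cdh13 0.20 and Pcdh1 0.20 without the 3 libraries, Cdh11 0.24 without the 4, and Fat1 0.30, Dchs1 0.0764, Cdh11 0.56 and Cdh13 0.27 without the 5. Between the irradiated groups, Fat1 was 0.23, Fat4 0.21, Cdh11 0.20 and Cdh13 0.29 by library totals, Fat1 0.23 and Fat4 0.043 without the 3, Fat3 0.18, Cdh11 0.74, Cdh13 0.0746 and Pcdh17 -0.0693 without the 4, and Fat1 0.19 and Fat4 0.00249 without the 5. For the change of the irradiation difference, Cdh2 was -0.0267 with no filter, Cdh2 -0.26, Cdh11 -0.0307 and Cdh13 -0.20 without the 3, Fat1 -0.0047, Fat3 0.0672 and Cdh2 -0.0619 without the 4, and Fat1 -0.12, Cdh2 -0.56, Cdh11 -0.74 and Cdh13 -0.30 without the 5. Within-group r with Fat1 became -0.057 for Fat3 and -0.0948 for Cdh2 by library totals, -0.217 for Fat3 and -0.131 for Pcdh7 without the 3, and 0.155 for Fat4, 0.233 for Pcdh1 and 0.262 for Pcdh17 without the 2 libraries farthest from the median of Fat1.

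Leaving out 1 library at a time, the difference between controls ran from -0.66 to 0.0656 for Cdh11, -0.40 to 0.19 for Cdh13, -0.52 to 0.0581 for Dchs1 and -0.37 to 0.20 for Pcdh1. That between irradiated groups ran from -0.85 to 0.64 for Cdh11, -0.0963 to 0.0466 for Cdh13, -0.25 to 0.28 for Fat1, -0.20 to 0.0546 for Fat4 and -0.086 to 0.48 for Pcdh17. The change of the irradiation difference ran from -0.60 to 0.89 for Cdh11, -0.21 to 0.38 for Cdh13, -0.33 to 0.28 for Cdh2 and -0.00498 to 0.57 for Fat1. Within-group r with Fat1 ran from -0.0255 to 0.241 for Cdh13, -0.256 to 0.142 for Cdh2, -0.0984 to 0.364 for Dchs1, -0.0836 to 0.229 for Fat3, -0.321 to 0.0972 for Fat4, -0.279 to 0.114 for Pcdh17 and -0.14 to 0.436 for Pcdh7.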
